A study of Macaca fascicularis with 48 samples.

Results

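In 24 cynomolgus monkeys (Macaca fascicularis), 95 gene IDs had a lower relative read count in the second of 2 frontal cortex libraries than in the first, in every animal. These 95 IDs were chosen by those measured values. A gene's count was divided by the sum of the counts in its library and multiplied by 1000000, which gives CPM, the usual relative count. The library with title number 25 to 48 (called second here) was set against the library of the same animal with title number 1 to 24 (called first). A member had a mean of at least 1 CPM over the 48 libraries, was not among the 30 IDs with the largest summed counts, and was lower in the second library of all 24 animals. Of the 28623 IDs in each file, 14339 met the level rule, and the 95 members are 0.663% of those. The fall in the second library is what selected them, so it is described without a test.

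The study asked how TREM2 agonist treatment acts in monkey brain. Each animal received 1 intravenous dose of 200 mg/kg, either of hPara.09, a TREM2 agonist antibody whose agent label reads Para09.v2, or of anti-gD, the isotype control. Cortex was taken on day 4 or day 28, with 6 animals for each antibody and day, and RNA was sequenced from 2 punches of frontal cortex per animal. No age, sex or untreated group is given in the labels, so every group carries an antibody. The animal labels pair title number n with n + 24 in all 24 animals, but the labels do not say which site or punch either set holds.

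TREM2 is a receptor on the surface of microglia, the resident macrophages of the brain, and it signals through an adaptor protein that it shares with other myeloid receptors. A punch of cortex is a mixture of neurons, astrocytes, oligodendrocytes, microglia and vessel cells, and neighbouring punches can differ in how much of each cortical layer and of the underlying white matter they hold. RNA from such a mixture is a sum over its cells. In bulk tissue of this kind, fewer cells of a type and less RNA per cell cannot be told apart. The files pair no gene ID with a name, so the members are given by ID with no role attached, and the cortex label and the cell make-up of the libraries could not be checked against named markers.

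Total counts ranged from 12137146 to 32118950 per library. First libraries had a median of 22149963 and second libraries 19442901, and the second was the shallower in 16 of 24 animals. The 30 IDs with the largest counts together took 16.68% to 39.34% of a library, with medians of 23.70% in first and 22.24% in second libraries. The second library of animal 5, an anti-gD animal of day 4, stood apart with both the lowest total and the highest share of these 30 IDs. That of animal 16, an anti-gD animal of day 28, was the next shallowest, with 13656102 counts. With the libraries of both animals left out, 110 IDs were lower in every animal. All 95 members were among them, which the rule made certain apart from the level cut, so nothing is concluded from it.

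Falling in every animal was less common than rising in every animal. Of the 14339 IDs, 376 (2.62%) were higher in the second library of all 24 animals and 275 (1.92%) were lower in 23 of 24. Animal 1 was the exception for 93 of those 275 IDs and animal 8 for 42. Animals 3 and 24 were the exception for 24 IDs each. Animals 5, 10, 11, 12, 14, 15, 17 and 20 were the exception for 0 of them.

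**Figure D1:**
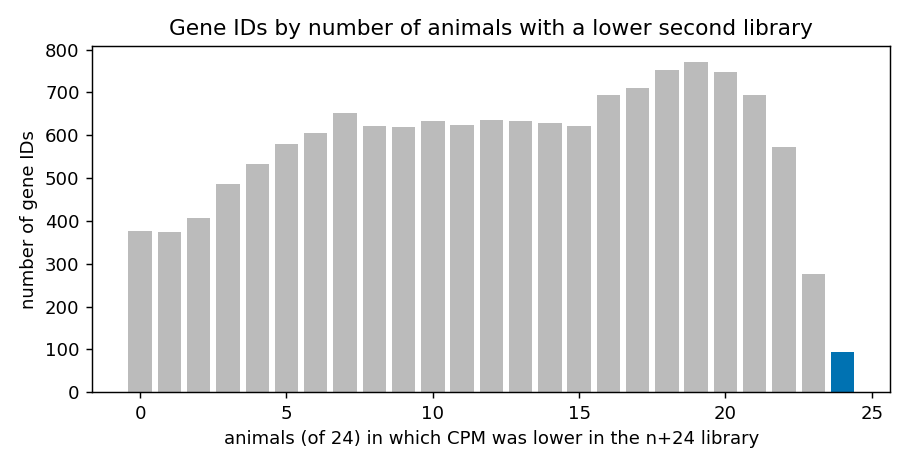
Number of gene IDs (vertical axis) by the number of animals, of 24, in which CPM was lower in the second library (horizontal axis), for the 14339 IDs with a mean of at least 1 CPM that were not among the 30 largest. The 95 members are the bar at 24 animals, and the 376 IDs at 0 animals were higher in the second library of every animal.

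The member nearest to leaving it was ENSMFAG00000013388, with a mean level of 15.99 CPM. In animal 6 it stood at 13.97 CPM in both libraries, from 255 counts in the first and 211 in the second, a log2 difference of -0.000249. Of the 275 IDs lower in 23 animals, ENSMFAG00000040157 had the largest mean fall. Its mean level was 2.067 CPM and its mean log2 difference -1.37 ± 0.798 (SD, n = 24 animals). It missed the set through animal 6, where it went from 1.534 CPM (28 counts) to 1.589 CPM (24 counts). The lowest member, ENSMFAG00000043798, had a mean level of 1.012 CPM, just over the level rule, and a mean log2 difference of -1.02.

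Most members fell by a modest amount. For each member the log2 ratio of second to first library, with 0.1 CPM added to each, was averaged over the 24 animals. These means ran from -1.41 to -0.23 with a median of -0.52, against a median of -0.02 over all 14339 IDs. In 7 members the mean fold was 0.5 or less, in 63 it was 0.75 or less, and in the other 32 it was above 0.75. The SD of the difference over animals had a median of 0.299 for members and 0.301 for all IDs. The rule limits a member's spread relative to its fall, so nothing is concluded from this likeness. No member had its highest second library below its lowest first library. In 25 members the median second library lay below the lowest first library. The same contrast selected the members, and this was not counted over all IDs. The ranges of first and second libraries therefore overlap for every member when animals are not paired.

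**Figure D2:**
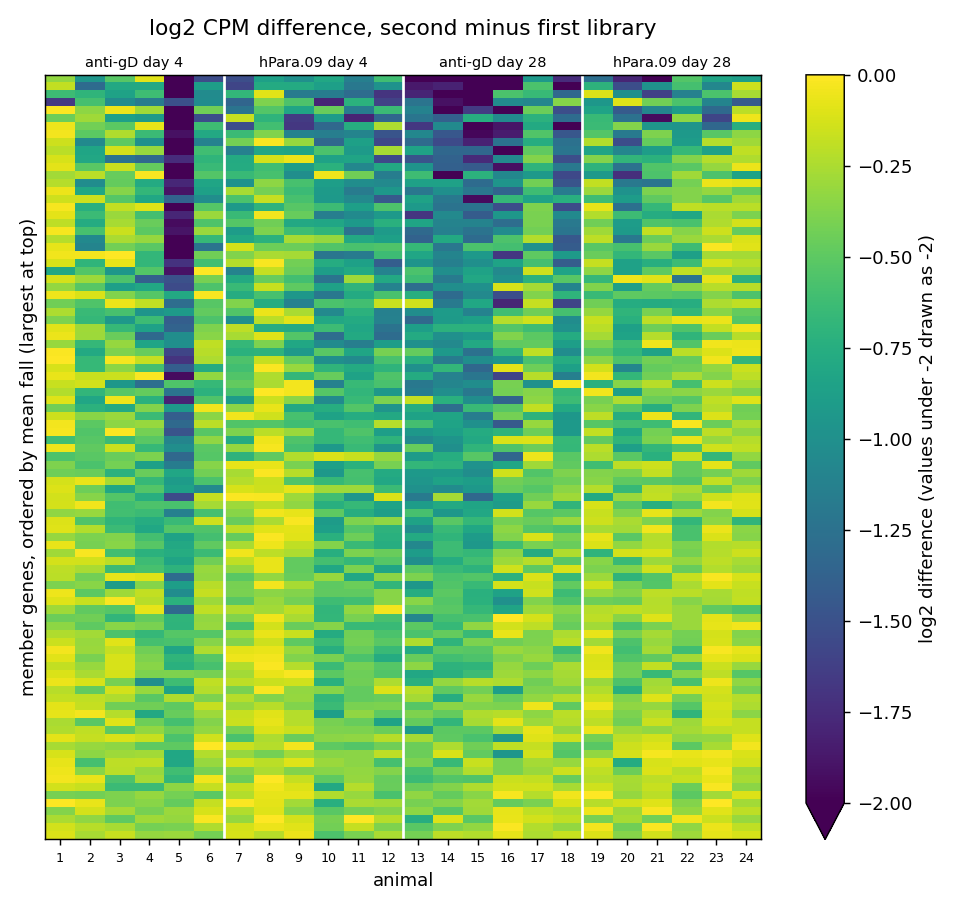
Log2 CPM difference between the second and the first library (colour) of each member (rows, largest mean fall at the top) in each animal (columns, by group). The means of the 95 members lie between -1.41 and -0.23, and the median over all 14339 IDs is -0.02.

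Members were found at every level of expression, with larger median falls in the lower classes. The rule asks for a fall in every animal, so genes with more spread between libraries enter only with larger mean falls. The values by class thus describe the members and not all genes of that level. Between 1 and 5 CPM, 12 of 2989 IDs were members (0.401%), with a median log2 difference of -0.67. Between 5 and 20 CPM, 25 of 3946 were (0.634%, median -0.62). The class of 20 to 100 CPM held 41 of 5459 (0.751%, median -0.43) and the class of 100 CPM or more held 17 of 1945 (0.874%, median -0.40). The members' mean CPM ran from 1.012 to 458.3 with a median of 30.44, against 21.39 for all IDs. Per length, the median of the members' mean RPKM (the authors' reads per kilobase of gene width, scaled to library size) was 6.207, against 4.655.

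Gene width, which the rule did not use, varied widely among members, from 174 to 16880 bases, with a median of 3859 against 2911 for all IDs. The highest share of members was in the widest class, where 7 of 297 IDs (2.36%) of 10000 bases or more belonged to the set. Those 7 had mean levels of 29.83 to 434.0 CPM and mean log2 differences of -0.56 to -0.24. The class whose members had the largest median fall was the narrowest, with the same limit from the rule. Among the 910 IDs under 700 bases, 9 were members (0.989%), with mean levels of 2.789 to 23.95 CPM and a median log2 difference of -0.70. Of the 7 members with a fold of 0.5 or less, 4 were among these short genes. Between 700 and 2000 bases the share of members was 0.445%, between 2000 and 5000 bases 0.597% and between 5000 and 10000 bases 0.812%. Width and level were not taken apart here.

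ENSMFAG00000029318 fell the most, with a mean log2 difference of -1.41 ± 0.995 (SD, n = 24 animals), and it is a low-level gene of mean 1.543 CPM and 1377 bases. In first libraries its lowest, median and highest levels were 1.291, 1.924 and 4.619 CPM, and in second libraries 0, 0.847 and 2.163 CPM. The second library of animal 5 was the only member value with a count of 0. Of the second libraries, 19 lay under the lowest first library and 2 lay above the median first library. By animal the log2 difference ran from -0.09 in animal 4 to -4.10 in animal 16. By the rule, the median had to drop in each group. In anti-gD animals the median went from 1.879 to 1.23 CPM on day 4 and from 2.18 to 0.523 CPM on day 28. In hPara.09 animals it went from 2.11 to 1.242 CPM on day 4 and from 1.478 to 0.754 CPM on day 28.

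ENSMFAG00000030166, a gene of 684 bases, was second with a mean log2 difference of -1.19 ± 0.661 (SD, n = 24 animals). First libraries ran from 14.92 to 63.68 CPM with a median of 31.15, and second libraries from 4.779 to 25.34 CPM with a median of 15.09. No second library reached the median first library, and 12 lay under the lowest first library. The fall was smallest in animal 24, at -0.15, and largest in animal 5, at -2.49. In anti-gD animals of day 28 its median went from 35.43 to 9.156 CPM, and in hPara.09 animals of day 28 from 23.41 to 15.09 CPM. On day 4 the medians went from 29.1 to 17.89 CPM with anti-gD and from 39.5 to 21.18 CPM with hPara.09.

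The members with the most reads fell less, a contrast that the rule can itself produce. ENSMFAG00000045257, the highest member at 458.3 CPM on average, had first libraries of 338.8 to 673.1 CPM with a median of 552.4, and second libraries of 187.1 to 595 CPM with a median of 372.9. Its mean log2 difference was -0.40 ± 0.252 (SD, n = 24 animals), from almost no difference in animal 16, at -0.0013, to -1.08 in animal 13. It was lower in 23 animals and not 24 when the 30 largest IDs were left out of the library sum. ENSMFAG00000039342, at 434.0 CPM and 11214 bases, had first libraries of 380.6 to 558.1 CPM with a median of 474.6 and second libraries of 245.3 to 518.8 CPM with a median of 391. Its mean log2 difference was -0.29 ± 0.199 (SD, n = 24 animals), from -0.016 in animal 23 to -0.79 in animal 10. The ranges of first and second libraries overlap for both genes.

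**Figure D3:**
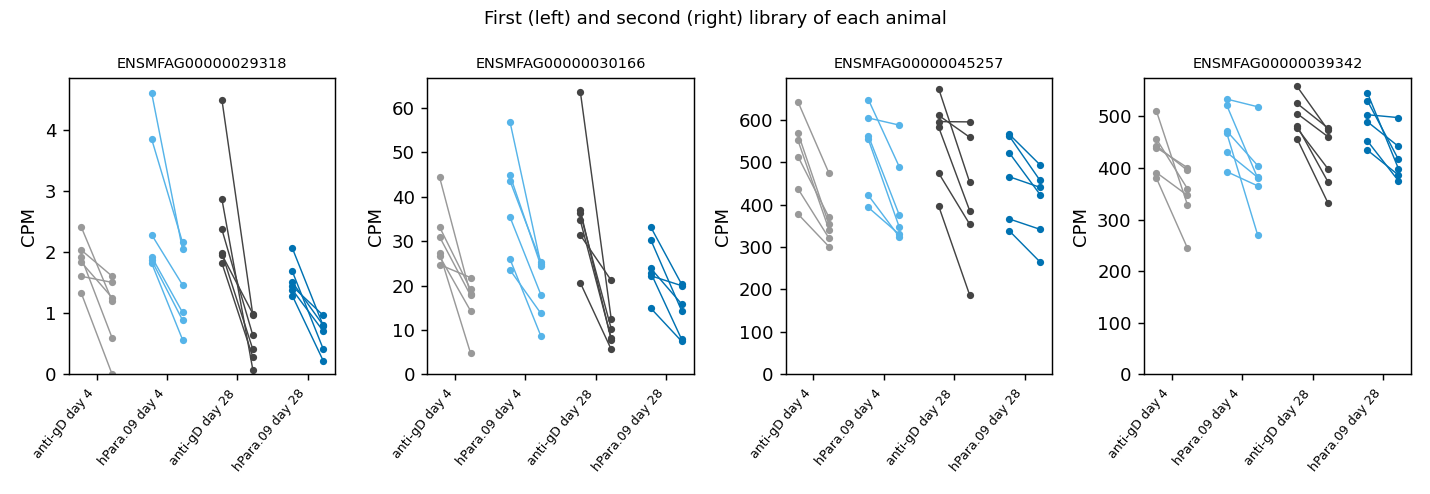
CPM (vertical axes) of the 2 members with the largest mean fall and the 2 with the highest mean CPM, in the first and the second library of each animal. A line joins the 2 libraries of an animal and the colour gives the group. Every line falls from first to second, by the rule, while the ranges overlap: for ENSMFAG00000045257 they are 338.8 to 673.1 CPM and 187.1 to 595 CPM.

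The members tended to fall further in the same animals. Pearson's r of the log2 differences over the 24 animals was taken for each of the 4465 pairs of members, and its median was 0.481, with quartiles of 0.304 and 0.630. For all IDs the median was 0.0971. All genes of a library share its total, so these correlations are not between independent values. The members were also chosen from these same differences to share a direction, which all IDs were not. A member's r with the mean of the other members ran from 0.203 to 0.920 with a median of 0.689, and 77 of 95 were at 0.5 or more. The first principal component of the differences held 48.4% of their variance, the second 15.6% and the third 6.34%. The other 18 members had an r under 0.5 with the rest. Without animals 5 and 16 the median r between members was 0.438, and 72 members had an r of 0.5 or more with the rest. Over all 24 animals ENSMFAG00000039342 had an r of 0.336 with the rest.

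Most like ENSMFAG00000029318 in its pattern over the 24 animals were ENSMFAG00000040111, with an r of 0.913 between their log2 differences, and ENSMFAG00000030550, with an r of 0.874. ENSMFAG00000040111, a gene of 1098 bases, had first libraries of 56.57 to 128.1 CPM with a median of 81.51 and second libraries of 16.48 to 82.32 CPM with a median of 49.81. Its mean log2 difference was -0.87 ± 0.565 (SD, n = 24 animals), and it fell least in animal 3 (-0.13) and most in animal 16 (-2.38). ENSMFAG00000030550, of 14228 bases, had first libraries of 87.69 to 173.5 CPM with a median of 107.8 and second libraries of 40.29 to 113.4 CPM with a median of 81.13. Its mean log2 difference was -0.56 ± 0.353 (SD, n = 24 animals). These genes differ widely in level and width, and each of them fell most in animals 16 and 5, whose second libraries were the shallowest. Without those animals, chosen after the data were seen, the r values were 0.769 and 0.718 over 22 animals.

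The size of the fall ranged widely among the animals of a group. The median log2 difference over the 95 members was closest to 0 in animal 1, at -0.134, and lowest in animal 5, at -1.022, both in the anti-gD day 4 group. In that group the lowest, median and highest animals were at -1.022, -0.421 and -0.134. The hPara.09 animals of day 4 were at -0.687, -0.499 and -0.175. On day 28 the anti-gD animals were at -0.802, -0.690 and -0.386 and the hPara.09 animals at -0.561, -0.329 and -0.202. The groups overlap on both days. Animal 5 held the largest fall of 43 of the 95 members, and 50 members were at 0.5-fold or less there. The least changed animals were animal 8, which held the smallest fall of 23 members, and animal 1, which held that of 12.

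**Figure D4:**
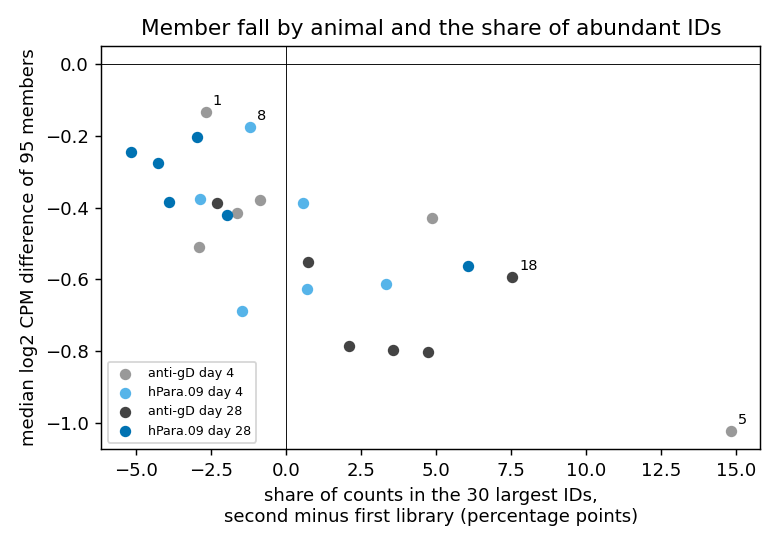
Median log2 difference over the 95 members in each animal, by group and against the difference in the share of counts taken by the 30 largest IDs (percentage points, second minus first library). Animal 5 is lowest at -1.022 and animal 1 highest at -0.134, and Pearson's r over the 24 animals is -0.756.

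Library make-up moved with the fall. In animals where the 30 largest IDs took a larger share of the second library than of the first, the members' median fall was larger, with Pearson's r = -0.756 and Spearman's rho = -0.743 over 24 animals. Without animals 5 and 18, which lay farthest from the median share difference, r was -0.665. The share difference itself ran from -5.163 to 14.82 percentage points and was negative in 13 of 24 animals. A share that the largest genes gain is taken from all other genes, and the median over all IDs in each animal carries that. After it was subtracted, r was -0.508, and -0.444 without the same animals. With the log2 difference in total count r was 0.506, and 0.439 without animals 5 and 11. These correlations describe values from the same libraries that selected the members, and the part of make-up and depth in the fall was not tested.

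Single members varied in this relation. Their r with the share difference ran from -0.956 to 0.003, with a median of -0.558 against -0.316 for all IDs. ENSMFAG00000030166 was at -0.799 and ENSMFAG00000029318 at -0.593, whereas ENSMFAG00000039342 was at -0.067. For the last of these, r with the difference in exonic share was -0.704. Exonic share is used here for the sum of counts as a percent of the read number that the deposited RPKM values were divided by, and it was 57.09% to 64.97% over the libraries.

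Together the members held 0.546% to 0.878% of the counts of a first library, with a median of 0.694%, and 0.340% to 0.690% of a second library, with a median of 0.470%. The difference of second minus first library was -0.337 to -0.0700 percentage points over the animals, and the ranges overlap. By group, the mean share went from 0.639% ± 0.0497 to 0.468% ± 0.0513 (SD, n = 6) in the anti-gD animals of day 4. It went from 0.675% ± 0.0973 to 0.502% ± 0.0996 in the hPara.09 animals of day 4. On day 28 it went from 0.722% ± 0.107 to 0.498% ± 0.104 with anti-gD and from 0.643% ± 0.0714 to 0.523% ± 0.0804 with hPara.09.

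How the library is scaled changed which IDs were lower in every animal. With edgeR's TMM factors 100 IDs were, of which 65 were members, and with DESeq2's size factors 109 were, of which 65 were members. Without the 30 largest IDs in the sum 138 were, of which 77 were members. With the divisor of the deposited RPKM values 93 were, of which 79 were members. The 59 members lower in all 24 animals under all 5 scalings had a median log2 difference of -0.56, and the other 36 had one of -0.43. No member was lower in fewer than 21 animals under any of these scalings. ENSMFAG00000029318, ENSMFAG00000030166, ENSMFAG00000040111 and ENSMFAG00000039342 were among the 59. ENSMFAG00000030550 was lower in 23 animals and ENSMFAG00000013388 in 22 with TMM factors.

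An animal's level of a member was partly shared between its libraries, about as far as for all IDs. The rule asks for a fall in every animal, which can itself favour genes whose libraries agree. Over the 24 animals, Pearson's r between the level in the first and in the second library ran from 0.0238 to 0.852 with a median of 0.581, against 0.544 for all IDs. It was above 0.5 in 58 of 95 members. With group and library set means removed, a median of 55.8% of a member's variance in log2 CPM lay between animals, against 50.1% for all genes. The share was above 50% in 54 members, and in 50.2% of all genes. Over single members the share ran from 1.38% in ENSMFAG00000014661 to 84.2% in ENSMFAG00000002425. ENSMFAG00000045257 had 74.7% of its variance between animals and ENSMFAG00000029318 24.8%. The relative spread of a member's level over animals was 19.3% (median coefficient of variation) in first and 24.6% in second libraries. All IDs showed much the same, with 19.2% and 23.8%.

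Whether the antibody or the day changed the members' levels was tested on the sum of an animal's first and second library, a value that the rule did not use. On day 4, edgeR's quasi-likelihood test with Benjamini-Hochberg adjustment over 16721 genes called 0 of the 95 members at an adjusted p under 0.05. It called 0% of all genes. At an unadjusted p under 0.05 there was 1 member (1.05%) against 2.59% of all genes, and DESeq2 and limma voom called 0 members. For DESeq2 and limma voom the share of all genes called is given only where stated. Their 0 counts, here and below, are not read as a result about the members. The members' median log2 fold change of hPara.09 over anti-gD was 0.03, against -0.01 for all genes, and 57 of 95 were higher. For all 95 members the 95% interval around the estimate stayed inside a 2-fold change either way, and for 86 inside a 1.5-fold change. Among all genes these shares were 87.81% and 68.28%. The smallest p of a lower member was that of ENSMFAG00000029772, with a log2 fold change of -0.30 (SE 0.121). Among higher members it was that of ENSMFAG00000030753, at 0.30 (SE 0.149).

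On day 28 the same test also called 0 members and 0% of all genes, and DESeq2 and limma voom called 0 members. At an unadjusted p under 0.05 were 4 members (4.21%) and 4.84% of all genes. The median log2 fold change of hPara.09 over anti-gD was -0.06 and 26 of 95 members were higher. Intervals stayed inside a 2-fold change for 94 members and inside a 1.5-fold change for 77, against 86.81% and 66.18% of all genes. ENSMFAG00000014661 had the smallest p, with a log2 fold change of -0.37 (SE 0.142) and an adjusted p of 0.9515 by edgeR. The direction differed between the library sets. With the first libraries alone 22 members were higher and the median was -0.11, whereas with the second libraries alone 71 were higher and the median was 0.09. The change between sets is made of the within-animal differences that the rule used, in which members move together. Counts by sign are thus not separate results, and all genes are not set beside them here.

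For the difference of the antibody effect between the days, 0 members and 0% of all genes were called by edgeR, and 0 members by DESeq2 or limma voom. An unadjusted p under 0.05 was found for 4 members (4.21%) and 4.28% of all genes. Intervals were wider here, and stayed inside a 2-fold change for 85 members and inside a 1.5-fold change for 51. Among all genes these shares were 75.31% and 46.62%. ENSMFAG00000029318 had the smallest p among members with a lower antibody effect on day 28, with a log2 difference of -0.99 (SE 0.342). Among those with a higher effect it was ENSMFAG00000042407, at 0.57 (SE 0.232). In the anti-gD animals, day 28 against day 4 gave 0 members and 0% of all genes called by edgeR, and 0 members by DESeq2 or limma voom. There 5 members (5.26%) and 10.0% of all genes had an unadjusted p under 0.05. The median log2 fold change of day 28 over day 4 was 0.06, with 65 of 95 higher. With first libraries alone 82 were higher, and with second libraries alone 35, at medians of 0.12 and -0.05. These counts by sign have the same limits as those of day 28.

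Day 28 against day 4 in the hPara.09 animals was the comparison in which members came nearest to the threshold. edgeR called 44 genes, which is 0.263% of all, and 0 of the 95 members. An unadjusted p under 0.05 was found for 21 members (22.1%) and 18.2% of all genes. ENSMFAG00000001297 had the smallest p among higher members. Its level was 46.44, 51.91 and 67.07 CPM (lowest, median and highest of 6 animals) on day 4 and 61.18, 66.26 and 77.19 CPM on day 28. The days overlap, and the log2 fold change was 0.31 (SE 0.0746), with an adjusted p of 0.0613 by edgeR. It is also the member with the smallest mean fall between libraries, -0.23 ± 0.132 (SD, n = 24 animals).

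On the lower side ENSMFAG00000032904 had 2.874, 4.04 and 5.07 CPM on day 4 and 2.278, 2.806 and 3.116 CPM on day 28. Its log2 fold change was -0.58 (SE 0.142) with an adjusted p of 0.0634 by edgeR. ENSMFAG00000040111 had 59.33, 76.73 and 105.2 CPM on day 4 and 44.6, 63.34 and 65.73 CPM on day 28. Its log2 fold change was -0.44 (SE 0.112) with an adjusted p of 0.0639 by edgeR. Both genes overlap between the days.

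DESeq2 called 4 members in this comparison, which were ENSMFAG00000001297 (higher) and ENSMFAG00000029318, ENSMFAG00000032904 and ENSMFAG00000040111 (lower). It called 3.24% of all genes. edgeR on first libraries alone called 2 members and 1.93% of all genes, and on second libraries alone 0 members. With animal 5 left out of the edgeR fit 1 member and 0.499% of all genes were called. Without animal 8 the numbers were 3 members and 1.06%, and without animal 19 they were 3 members and 1.88%. limma voom called 0 members. Shares of all genes are not given for limma voom or second libraries alone, so nothing is read from those 0 counts. Over all 95 members the median log2 fold change was -0.05 against 0.01 for all genes. Of the members 45 were higher, so no common direction was seen.

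**Figure D5:**
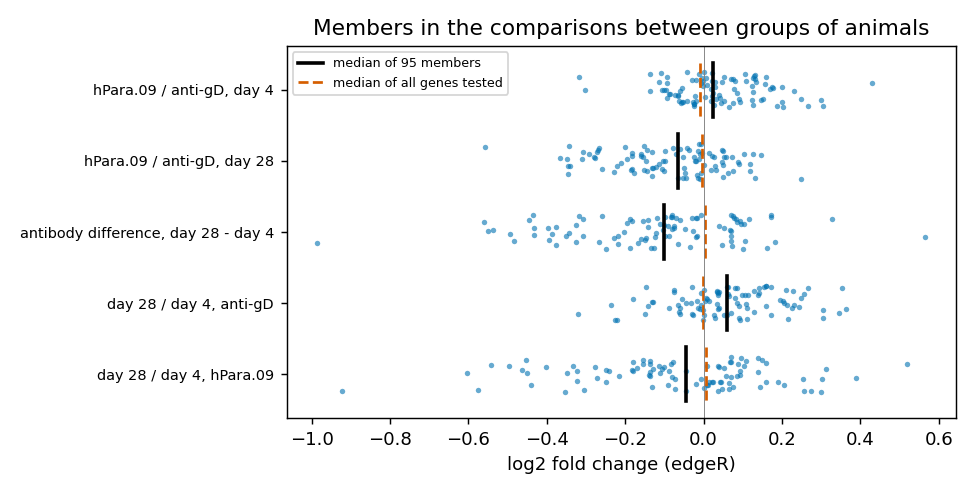
Log2 fold changes of the 95 members in the comparisons between groups, 1 point per member, from edgeR fits on both libraries of an animal summed. The points scatter on both sides of 0 in each comparison, and 0 members were called at an adjusted p under 0.05.

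A further question was whether the size of the fall between libraries changed with antibody or day. The rule fixed its sign in each animal, and that also limits its size and spread. The members' results here come from the values that selected them, and their shares are not set against equally chosen genes. Because members move together over animals, counts of them by sign are not separate results. The comparison of second with first libraries itself, with the animal as a block, called 29.0% of 15481 genes as lower by edgeR. All 95 members were among them, and nothing is read from that since the same contrast selected them. The change of the fall with the antibody was called by edgeR for 0 members and 0% of all genes, and by DESeq2 for 0 members. At an unadjusted p under 0.05 the shares were 5 members (5.26%) and 6.63% of all genes. The median was 0.08 on the log2 scale and 73 of 95 members were positive, meaning a smaller fall with hPara.09. ENSMFAG00000032084 had the smallest p, at 0.30 (SE 0.101). The change of the fall with the day was called for 0 members and 0% of all genes by edgeR, and for 0 members by DESeq2. At an unadjusted p under 0.05 there were 4 members (4.21%) and 6.63% of all genes. The median was -0.03, and ENSMFAG00000029318 had the smallest p, at -0.79 (SE 0.322).

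Within single days or antibodies, contrasts added after the data were seen, edgeR again called 0 members. The rule used these same differences, and members move together over animals, so counts of members below are not separate results. The fall differed most by antibody on day 28, where 87 of 95 members fell less with hPara.09, at a median of 0.24 on the log2 scale against 0.01 for all genes. Here 22 members (23.2%) and 9.97% of all genes had an unadjusted p under 0.05. The smallest adjusted p was 0.4824 by edgeR, and 0% of all genes were called. ENSMFAG00000030166 had the smallest p, with a difference of 0.89 (SE 0.278). The difference of top-30 share between libraries moved the same way, at 2.725 ± 3.392 points with anti-gD and -2.042 ± 4.115 with hPara.09 (mean and SD, n = 6), and its part was not tested. On day 4 the antibody contrast called 0% of all genes and gave 32 positive members, with 4 members (4.21%) and 3.22% of all genes at an unadjusted p under 0.05. Between days in anti-gD animals 14 members were positive, at a median of -0.15, and 16 members (16.8%) and 13.8% of all genes had an unadjusted p under 0.05. There edgeR called 1 gene, which is 0.00646% of all and no member. Between days in hPara.09 animals 0% of all genes were called, and 1 member (1.05%) and 1.86% of all genes had an unadjusted p under 0.05.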

How the data were processed

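Per the file headers, the authors' file for each of 48 libraries lists 28623 Ensembl gene IDs with an exonic read count (whole numbers), the gene's width and its RPKM. The submitters' processing notes name GSNAP and no other tool. Strand handling, the treatment of reads shared between similar genes, the build, the annotation and GSNAP's version were not given in the sources used here, so overlapping or near-identical genes are uncertain. The deposited RPKM values were used for levels per length and for a read divisor recovered from them. No ID was paired with a symbol (0 matched), so 22 marker and pathway lists were not analysed here and no sequence is shown. The members and lists were chosen with earlier results of these data known.

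Counts were scaled to CPM. Differences within an animal are log2 ratios with 0.1 CPM added. The animal is the replicate, and labels tie both libraries to it by animal number. Between groups, both libraries' counts were summed and tested with edgeR 4.0.16 (R 4.3.3) quasi-likelihood, TMM factors, its default low-count filter and robust dispersions, with 1 mean per group over 24 animals. Library differences were fitted over 48 libraries with the animal as a block. P-values are two-sided, with Benjamini-Hochberg adjustment over every gene in the fit, and called under 0.05. Variance components used log2 CPM with a prior count of 2. Alternatives were DESeq2 1.42.0, limma voom 3.58.1, other scalings, filters and pseudocounts, 1 library set alone and each animal left out. The scripts were tested on simulated data.

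Genes named are the 2 members with the largest mean fall, the 2 with the highest CPM, the member nearest to leaving the set, the ID with the largest mean fall among those lower in 23 animals, the 2 members whose differences were most like those of the member that fell most, and in each comparison members with the smallest p in either direction. ENSMFAG00000043798 was named after its values were seen.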

Additional observations from a re-analysis of the deposited data

Results flagged for a closer look

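In each group of 6 animals, the log2 differences of 7 named members, the members' median difference and their share of either library were examined for an animal far from the other 5, by Dixon's criterion at 95%. For independent values, chance alone marks about 1 in 20 such sets. That rate does not apply here, since the rule used these same differences. The sets also share animals, and members move together, so nothing is concluded from the number marked. Of 40 sets, 4 held such an animal. ENSMFAG00000030166 fell least in animal 17 of the anti-gD day 28 group, at -0.5661, where the other 5 animals were between -2.35 and -1.812. In the anti-gD day 4 group animal 5 was far below the rest for ENSMFAG00000030550, at -1.32 against -0.5055 to -0.03717, and for ENSMFAG00000040111, at -2.247 against -0.8231 to -0.1276. The second library of this animal had the lowest total count and the highest share of the 30 largest IDs of all 48, and the part of either was not tested. ENSMFAG00000030550 fell least in animal 12 of the hPara.09 day 4 group, at -0.2236 against -0.6123 to -0.5348.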

How the results depend on the processing

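The number of IDs lower in every animal stayed within 1.5 times of 95 in 31 of 32 alternative settings. The exception was leaving out animal 1, which gave 187, and the range over single animals left out was 94 to 187. The median member difference was negative in all 31 settings run, from -0.54 to -0.4919 over single animals left out. The rule fixed that sign wherever animals were left out, the pseudocount was changed or the block was dropped. Called members stayed at 0 in every setting for the antibody on day 4 and day 28, the antibody by day, the day in anti-gD animals, and both changes of the library difference. The last held also with no replicate block, where 0 were called. Shares of all genes called are not given for each of these settings. The 0 counts are therefore not read as a result about the members. For the day in hPara.09 animals 0 became 4 with DESeq2, 2 with first libraries alone and 0 to 3 with single animals left out. Why these differ was not tested. The median share of variance between animals was 50.29% to 57.64% with single animals left out and 0% when library set means were not removed, since the estimate then counts the fall itself as spread within an animal. Members of 1 to 5 CPM rest on the fewest counts.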

Other observations

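The 376 IDs that were higher in the second library of every animal had a median log2 difference of 0.41 and, per animal, medians from 0.235 to 0.579. Over the 24 animals, the medians of these IDs and of the 95 lower IDs had a Pearson's r of -0.595 and a Spearman's rho of -0.627, a description of libraries that selected both sets and share their totals. Among the higher IDs the median width was 1500 bases, against 3859 for the lower ones, and the median level was 42.8 CPM against 30.44. At the opposite end of the rule, 0 of the 30 IDs with the largest counts were lower in every animal, and the most consistent of them was lower in 21. No ID with a mean under 1 CPM was lower in all 24 animals.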
